A study of Mus musculus with 2 samples.

Results

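The genes described here encode membrane pumps and ester-cutting enzymes that can change how much calcein a cell holds, apart from the mitochondrial permeability transition pore (mPTP), the channel of the inner mitochondrial membrane that the calcein sort was meant to read. They were chosen by name. The 10 genes comprise the pumps Abcb1a, Abcb1b, Abcc1, Abcc3, Abcc4, Abcc5 and Abcg2 and the esterases Ces1d, Ces2g and Esd, and 9 of them were among the 23084 gene symbols of the table. Ces1d was not analysed here. The cells were mouse embryonic fibroblasts (MEF, connective tissue cells grown from embryos) of ICR mice, exposed to the dye calcein and to CoCl2 and then separated by flow sorting. Dim cells formed the high mPTP opening group and the bright cells the low mPTP opening group, with 1 library each. Both groups had been exposed to the dye and to cobalt, and no unsorted or unloaded cells were analysed here. No difference below has a replicate check, so the values describe these 2 libraries only. The RNA is from pools of many cells, in which fewer cells of a type and less RNA per cell cannot be told apart.

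In the usual form of the assay calcein is supplied as an uncharged acetoxymethyl ester that crosses the plasma membrane. Cellular esterases cut the ester, and the free, charged and fluorescent dye stays inside, where cobalt quenches whatever is not enclosed by intact mitochondria. P-glycoprotein, which mice encode with the gene pair Abcb1a and Abcb1b, pumps the ester out of the membrane before it is cut, and MRP1, the product of Abcc1, exports both the ester and the free dye. Through either route a cell can end up dim without any change in the pore. The other pumps belong to the same ATP-binding cassette (ABC) family and are known for other cargo. MRP3 (Abcc3) exports glucuronides and other organic anions, MRP4 (Abcc4) and MRP5 (Abcc5) export cyclic nucleotides among other anions, and ABCG2 exports a wide range of drugs and the dye Hoechst. Ces1d and Ces2g are carboxylesterases, known mainly from liver, fat and gut, and Esd is a cytosolic esterase that acts on S-formylglutathione.

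The sequences below are of 2 kinds. The first is shown because it limits how reads can be divided between a pair of genes, and is the longest stretch that is letter for letter the same in the coding sequences of Abcb1a and Abcb1b, genes on the plus strand of mouse chromosome 5 that lie 49571 bases apart. It spans 338 bases, of which the first 300 are shown, from base 1357 to base 1656 of the Abcb1a coding sequence in GENCODE M21 (build GRCm38). Capitals mark the codons of the ABC signature motif.
Abcb1a and Abcb1b: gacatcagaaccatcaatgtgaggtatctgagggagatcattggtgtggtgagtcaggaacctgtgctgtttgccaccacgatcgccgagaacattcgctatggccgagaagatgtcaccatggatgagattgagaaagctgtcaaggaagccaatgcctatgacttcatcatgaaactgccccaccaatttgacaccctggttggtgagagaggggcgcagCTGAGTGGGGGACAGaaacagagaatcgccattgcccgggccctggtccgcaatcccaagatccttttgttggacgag
Over the 3822 aligned coding bases 88.1% were identical, and 21.7% of the 31-base words of Abcb1a transcripts also occurred in Abcb1b transcripts. Reads from such stretches fit both genes, so the low Abcb1a values given below are uncertain to the extent that the authors' counting divided these reads.

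The second set is shown as a description of the genes. It holds the promoter windows of measured pumps in which the start site was the annotated gene start. Each window runs from 250 bases before to 50 bases after the start, from RefSeq on build GRCm38.p6, and is written in the direction of transcription. Abcc4 (chr14:118706170-118706469, minus strand) and Abcc5 (chr16:20426345-20426644, minus strand) lay furthest apart in opposite directions, and Abcb1b (chr5:8797897-8798196, plus strand) is the P-glycoprotein gene with more reads in both libraries. Capitals mark matches, on either strand, to the GC box GGGCGG, the CCAAT box CCAAT, the TATA box TATAAA, the xenobiotic response core GCGTG and the antioxidant response core TGANNNNGC, and where matches overlap the capitals run together.
Abcc4: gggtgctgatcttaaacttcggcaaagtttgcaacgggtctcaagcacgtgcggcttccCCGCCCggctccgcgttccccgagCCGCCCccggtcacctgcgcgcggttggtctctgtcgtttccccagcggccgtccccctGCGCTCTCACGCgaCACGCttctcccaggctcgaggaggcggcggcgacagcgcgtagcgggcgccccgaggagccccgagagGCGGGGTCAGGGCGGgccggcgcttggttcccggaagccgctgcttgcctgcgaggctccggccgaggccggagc
Abcc5: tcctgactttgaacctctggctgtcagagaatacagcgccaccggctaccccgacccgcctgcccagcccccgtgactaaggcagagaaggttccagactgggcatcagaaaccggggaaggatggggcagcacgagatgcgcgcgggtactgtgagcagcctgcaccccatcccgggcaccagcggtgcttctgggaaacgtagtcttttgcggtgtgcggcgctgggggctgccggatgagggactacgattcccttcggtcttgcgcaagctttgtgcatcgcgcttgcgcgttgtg
Abcb1b: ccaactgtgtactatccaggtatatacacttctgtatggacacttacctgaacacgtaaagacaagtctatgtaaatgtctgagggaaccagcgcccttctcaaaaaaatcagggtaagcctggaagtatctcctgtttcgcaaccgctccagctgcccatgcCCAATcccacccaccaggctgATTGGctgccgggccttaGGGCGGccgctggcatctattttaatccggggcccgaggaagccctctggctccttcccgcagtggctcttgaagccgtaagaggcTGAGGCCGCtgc
The Abcc4 window held 3 GC boxes, 2 xenobiotic response cores and 2 antioxidant response cores. The Abcb1b window held 1 GC box, 2 CCAAT boxes and 1 antioxidant response core. None of these letters occurred in the Abcc5 window, which says nothing about the factors themselves. Of 32851 windows of the same length, 35.7% held a GC box, 37.4% a CCAAT box, 13.6% a TATA box, 32.4% the xenobiotic and 41.3% the antioxidant response core, so such matches are common.

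Levels are in FPKM, read fragments scaled to gene length and library size. For most genes the length matched all annotated exons of the gene merged. Levels, order and sums across different genes rest on that length, and which exons the cells used was not tested. Read numbers could be recovered for most genes from the steps of the table, which gave the read totals that the FPKM values were divided by, 16375735 in the high and 15060435 in the low mPTP opening library. Recovered gene reads summed to 1.10 times these totals in both libraries. Intervals are exact 95% intervals for counting error alone and leave out variation between cultures and sorts and the choice of gene length. Differences on a log scale are log2((high + 1)/(low + 1)) of FPKM, which understates differences of low genes, whereas ratios are of FPKM itself. A gene was called measured where its mean over the libraries reached 1 FPKM. A measured gene was counted as higher or lower once (high + 1)/(low + 1) reached 1.5-fold in that direction.

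Of the 7 measured genes among the 9, 0 were higher and 0 were lower by 1.5-fold or more. Among the 11898 measured genes as a whole, 1.54% passed this size upward, 4.38% downward and 5.92% in either direction, so 0 of 7 is near the background. The measured members had a median log2 difference of 0.17 and ranged from -0.53 for Abcc5 to 0.34 for Abcc4, beside a median of -0.02 over all measured genes. Abcb1b, Abcc1, Abcc4, Abcg2 and Esd had positive differences and Abcc3 and Abcc5 negative ones. On the ratio of FPKM itself, without the added 1, Abcc3 and Abcc5 lay just past 1.5-fold lower, as did 7.82% of all measured genes, while 0 of the 7 and 2.88% of all measured genes lay past it upward. At 1.2-fold with the added 1, Abcc4 was higher and Abcc3 and Abcc5 were lower, 1 and 2 of the 7, beside 9.60% and 17.5% of all measured genes in those directions. Abcb1a and Ces2g were below the cutoff and did not enter these counts.

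Markers of other cell types also differed between the libraries. Their counts past 1.5-fold stand beside 1.54% of all measured genes higher and 4.38% lower. All 16 macrophage markers had negative differences, 13 of them by 1.5-fold or more, and summed to 522 FPKM in the high and 1047 FPKM in the low mPTP opening library. Glial markers summed to 1.74 and 13.8 FPKM in that order (4 of 4 measured lower) and mesothelial markers to 20.5 and 46.8 FPKM (7 of 8 lower), while smooth muscle and pericyte markers summed to 2157 and 1289 FPKM (4 of 12 higher, 0 lower by that size). Most of the last sum was Acta2, smooth muscle actin, at 1953 FPKM in the high and 1166 FPKM in the low mPTP opening library, and 4 of the 12 had negative differences, namely Notch3, Rgs5, Kcnj8 and Abcc9, with ratios of 0.659, 0.920, 0.652 and 0.513. No marker of these 4 lists was at 0 in either library. The 13 fibroblast markers summed to 7236 FPKM in the high and 7339 FPKM in the low mPTP opening library (0 of 12 measured higher, 2 lower), with S100a4 at 0 in the low mPTP opening library. Markers of 4 further cell types left little signal. Endothelial markers summed to 2.57 and 2.97 FPKM, with Tie1 at 0 in the high mPTP opening library, and adipocyte markers to 1.70 and 2.63 FPKM, with Adipoq at 0 there. Hepatocyte markers summed to 0.207 and 0.430 FPKM, with Alb and Apoa1 at 0 in the low mPTP opening library, and epithelial markers to 0.775 and 1.41 FPKM, with Krt5 at 0 there. Of these last 4 lists 9, 4, 4 and 7 genes were in the table and 1, 1, 0 and 0 were measured. The part of these cell types in the values given below was not tested.

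**Figure D1:**
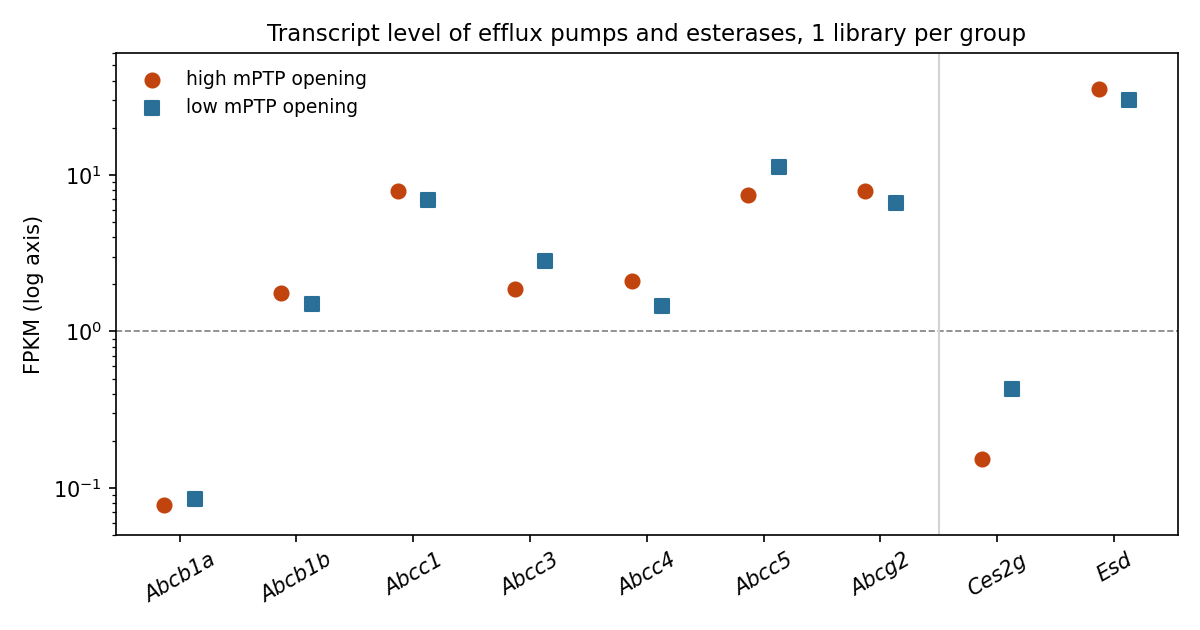
FPKM of the 9 genes (log axis) in the high mPTP opening library (orange circles) and the low mPTP opening library (blue squares), 1 library each, with a dashed line at 1 FPKM and the pumps left of the grey line. Abcc3, Abcc5 and Ces2g sit lower in the high mPTP opening library, and Esd stands above all the pumps in both libraries.

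The pumps that handle the calcein ester showed small positive differences or too few reads to compare. Abcc1 (ENSMUSG00000023088, chromosome 16, 14361558 to 14475737 in GENCODE M21, plus strand), the gene of MRP1, was at 7.87 FPKM in the high mPTP opening library and 6.90 FPKM in the low mPTP opening library. Its ratio of 1.14 had a counting interval from 1.07 to 1.22, and 44.8% of measured genes lay at least as far from 0 on the log2 scale. The MRP1 transcript was thus well above the P-glycoprotein transcripts in both libraries.

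Abcb1b (ENSMUSG00000028970, chromosome 5, 8798147 to 8866315, plus strand) was at 1.77 FPKM in the high and 1.496 FPKM in the low mPTP opening library, from 232 and 180 reads. The interval of its ratio, 1.19, ran from 0.971 to 1.45, and no difference could be told from counting error. Abcb1a (ENSMUSG00000040584, chromosome 5, 8660077 to 8748575, plus strand) had 7 reads in each library, or 0.0780 FPKM in the high and 0.0848 FPKM in the low mPTP opening library. Its ratio of 0.920 had an interval from 0.275 to 3.07, too wide to give a direction. Most P-glycoprotein reads therefore fell on Abcb1b in both libraries. The third gene of the cluster, Abcb4, which encodes the phospholipid transporter of bile, had 28 reads in the high and 35 in the low mPTP opening library. A further 10.1% of Abcb1a exon sequence overlaps Gm42686 on the opposite strand, and whether counting used strand is not given in the sources used here.

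Added together, Abcb1a, Abcb1b and Abcc1 came to 9.72 FPKM in the high and 8.48 FPKM in the low mPTP opening library, a ratio of 1.15.

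The organic anion pumps beyond MRP1 lay further apart, and in both directions. Abcc5 (ENSMUSG00000022822, chromosome 16, 20331303 to 20426394, minus strand), the gene of MRP5, was at 7.43 FPKM in the high mPTP opening library and 11.2 FPKM in the low mPTP opening library. Its ratio was 0.665 with an interval from 0.619 to 0.715. On the log2 scale 5.36% of measured genes lay as far or further in that direction, and 7.40% in either direction. It was the pump with the highest level in the low mPTP opening library, where its counting interval, from 10.7 to 11.7 FPKM, lay above those of the other pumps.

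Abcc3 (ENSMUSG00000020865, chromosome 11, 94343295 to 94392997, minus strand), the gene of MRP3, had the same ratio from fewer reads. It was at 1.88 FPKM (175 reads) in the high and 2.82 FPKM (242 reads) in the low mPTP opening library, a ratio of 0.665 with an interval from 0.544 to 0.811. Abcc4 (ENSMUSG00000032849, chromosome 14, 118482692 to 118706219, minus strand), the gene of MRP4, went the other way, at 2.10 FPKM in the high and 1.45 FPKM in the low mPTP opening library. Its ratio was 1.45 with an interval from 1.17 to 1.81. On the log2 scale 5.95% of measured genes lay as far or further in that direction, and 18.4% in either direction. Reads of Abcc1, Abcc4 and Abcc5, and of Abcg1, Gsto1 and Gstp2 named below, did not come out whole, so their reads and intervals are approximate.

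Abcg2 (ENSMUSG00000029802, chromosome 6, 58584523 to 58695676, plus strand) encodes a half-transporter that works as a dimer and is known as the pump of dye-excluding side population cells. It was at 7.92 FPKM in the high and 6.60 FPKM in the low mPTP opening library, a ratio of 1.1998 with an interval from 1.09 to 1.32. In size and direction this was close to Abcc1, and the level of Abcg2 relative to Abcc1 was 1.01 in the high and 0.957 in the low mPTP opening library, which differed by less than counting error (interval of the ratio 0.938 to 1.18).

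**Figure D2:**
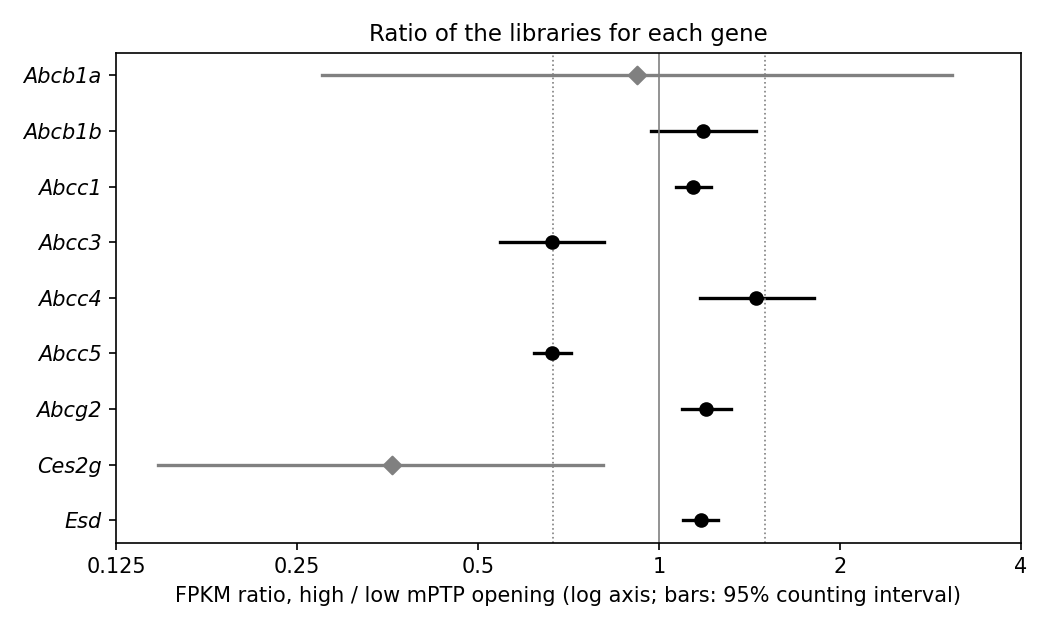
Ratio of FPKM in the high over the low mPTP opening library for each gene (log axis), with bars for the exact 95% counting interval, a solid line at 1, dotted lines at 1.5-fold, and grey diamonds for genes under a mean of 1 FPKM. Abcc3 and Abcc5 lie at 0.665, Abcc4 at 1.45, and the intervals of Abcb1a and Abcb1b span 1.

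Of the 7 measured genes, 4 had a counting interval above 1 (Abcc1, Abcc4, Abcg2 and Esd), 2 had one below 1 (Abcc3 and Abcc5) and 1, Abcb1b, had one that spanned 1. Of all measured genes 20.4% had an interval above 1 and 26.4% one below 1. These intervals narrow with the number of reads and compare the 2 libraries, not the conditions.

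The order of the pumps differed between the libraries. In the high mPTP opening library Abcg2, Abcc1 and Abcc5 were the 3 highest, at 7.92, 7.87 and 7.43 FPKM, with counting intervals that overlapped, and Abcc4, Abcc3 and Abcb1b followed at 2.10, 1.88 and 1.77 FPKM, again with overlapping intervals. In the low mPTP opening library Abcc5 led at 11.2 FPKM, Abcc1 and Abcg2 followed at 6.90 and 6.60 FPKM without a difference beyond counting error, and Abcc3, at 2.82 FPKM, stood above Abcb1b and Abcc4, at 1.496 and 1.45 FPKM. The intervals of Abcc5 against Abcc1 and Abcg2, and of Abcc3 against Abcb1b and Abcc4, overlapped in the high mPTP opening library and lay apart in the low mPTP opening library. The order within a library also depends on gene length, in GENCODE M21 15092 bases for Abcc1, 10681 for Abcc5 and 8153 for Abcg2. At these lengths reads of Abcc1 and Abcc5 did not come out whole. The lengths behind their FPKM may therefore differ, and their reads are approximate. Recovered reads of Abcc1, Abcc5 and Abcg2, in that order, were 1945, 1300 and 1058 in the high mPTP opening library. In the low mPTP opening library they were 1568, 1797 and 811.

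Ratios of 2 pumps within a library do not depend on how the libraries are scaled to each other. Abcc5 relative to Abcc1 was 0.944 in the high and 1.62 in the low mPTP opening library, a ratio of 0.583 with a counting interval from 0.528 to 0.644. Abcc3 relative to Abcc4 was 0.893 in the high and 1.95 in the low mPTP opening library, a ratio of 0.459 (0.339 to 0.616). These pairs were chosen after their values were seen.

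All 7 pumps together summed to 29.1 FPKM in the high and 30.5 FPKM in the low mPTP opening library. The ratio of 0.952 had an approximate counting interval from 0.913 to 0.992. It was 0.970 after scaling by the median ratio and 0.972 by the trimmed mean of log ratios. Once both columns were brought to a sum of 1000000 it was 1.04, but 0.963 when the gene Gm23935 was left out of that sum. Without Abcc5 it was 1.12. The sum therefore had no direction that held under every choice. Its make-up differed more than its size. Abcc5 made up 25.6% of the summed FPKM in the high and 36.6% in the low mPTP opening library, while Abcc1 made up 27.1% and 22.6% and Abcg2 27.3% and 21.6%, in the same order of libraries. Abcb1b made up 6.10% in the high and 4.90% in the low mPTP opening library, and Abcb1a 0.268% and 0.278%.

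**Figure D3:**
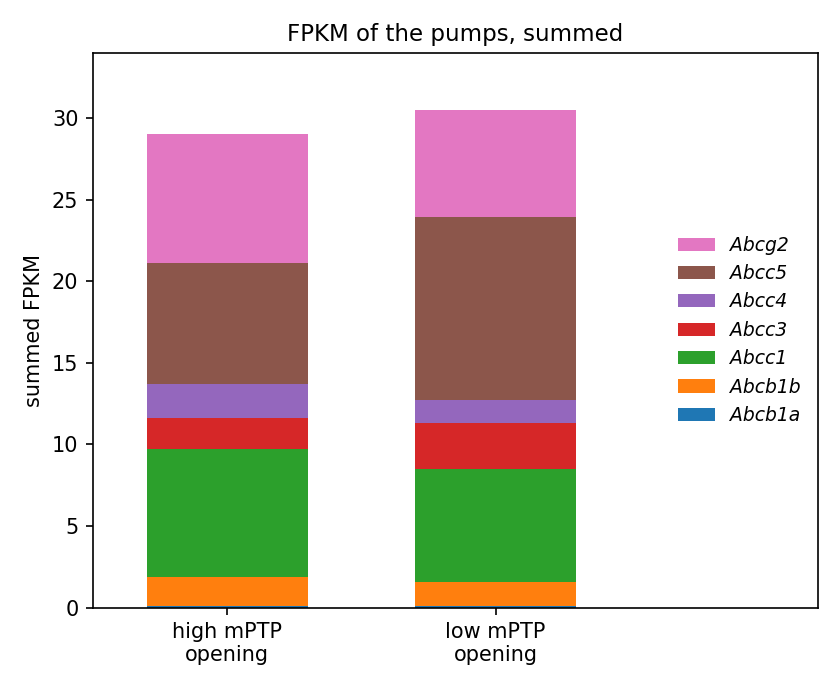
Summed FPKM of the 7 pumps in the high (left) and low (right) mPTP opening library, with 1 colour per gene. The bars reach 29.1 and 30.5 FPKM, and the Abcc5 segment is the one that differs most, at 7.43 FPKM in the high and 11.2 FPKM in the low mPTP opening library.

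Of the esterases, Esd was the one expressed at a high level. Esd (ENSMUSG00000021996, chromosome 14, 74732297 to 74750765, plus strand) was at 35.5 FPKM in the high and 30.3 FPKM in the low mPTP opening library, above 94.3% and 93.2% of the listed genes in those libraries. Its ratio was 1.17 with an interval from 1.10 to 1.26, and 33.2% of measured genes lay at least as far from 0 on the log2 scale. Of the 31-base words of its transcripts 12.1% also occurred in other genes, chiefly Gm5456, so some of its reads may be shared.

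Ces2g (ENSMUSG00000031877, chromosome 8, 104961718 to 104969537, plus strand) had 9 reads in the high and 23 in the low mPTP opening library, or 0.154 and 0.427 FPKM. The ratio of 0.360 had a wide interval from 0.147 to 0.807. The level of Ces2g lay under 1 FPKM in both libraries, far below Esd. Of 17 other carboxylesterases, 3 were in the table and 0 reached a mean of 1 FPKM. Ces1a had 8 reads in the high and 0 in the low mPTP opening library, Ces2e had 0 and 4, and Ces1g had 0 and 2. The listed carboxylesterases thus had few reads in either library, where 3 reads equal 0.0513 FPKM for Ces2g in the high and 0.0557 FPKM in the low mPTP opening library.

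**Figure D4:**
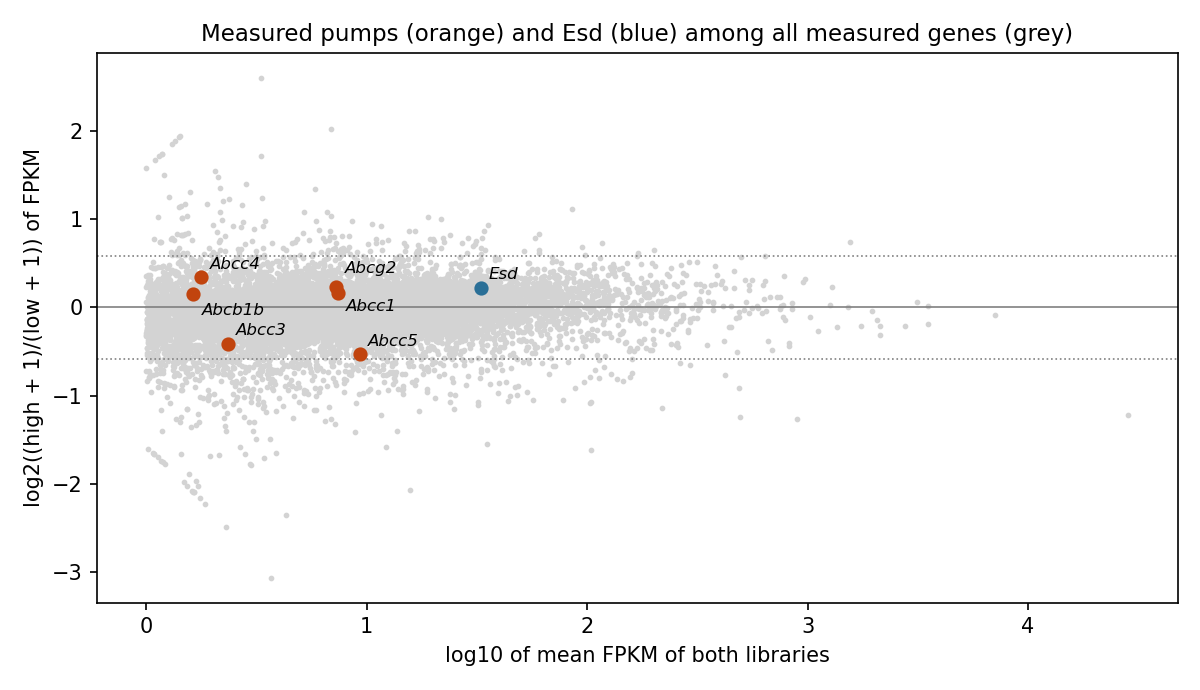
Difference of the high from the low mPTP opening library, as log2((high + 1)/(low + 1)) of FPKM, against log10 of mean FPKM for all 11898 measured genes (grey), the 6 measured pumps (orange) and Esd (blue), with dotted lines at 1.5-fold. The 7 genes lie inside the dotted lines, with Abcc5 at -0.53 nearest to one.

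The rest of the ABC family gave a frame for the pumps. Of 21 other measured ABC genes 0 were higher and 2 lower by 1.5-fold or more, beside 1.54% and 4.38% of all measured genes. Their median log2 difference was -0.05. The 2 lower genes were Abca1 and Abcg1, which move cholesterol out of cells. Abca1 was at 6.81 FPKM in the high and 13.9 FPKM in the low mPTP opening library, a ratio of 0.491 (0.457 to 0.528). Abcg1, in the subfamily of Abcg2, was at 0.721 FPKM in the high and 2.17 FPKM in the low mPTP opening library, a ratio of 0.332 (0.256 to 0.425). Abcg2 therefore lay on the other side of 1 from the only other measured gene of its subfamily.

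Within the ABCC subfamily, Abcc9, which encodes the sulphonylurea receptor of a potassium channel and not a pump, had a ratio of 0.513 (0.414 to 0.634), and Abcc10 had a ratio of 0.953 (0.789 to 1.15). Among the ABCB genes the peptide transporters of antigen presentation, Tap1 and Tap2, had ratios of 0.632 (0.531 to 0.751) and 0.640 (0.466 to 0.875). Abcb10, a half-transporter of the inner mitochondrial membrane, had a ratio of 1.27 (1.11 to 1.46). The list of ABCD, ABCE and ABCF genes had 4 positive and 3 negative differences among 7 measured genes. Abce1, which recycles ribosomes, was at 37.4 FPKM in the high and 27.7 FPKM in the low mPTP opening library, and Abcf2, a soluble ABC protein, at 36.3 and 31.6 FPKM. Abcd3, a peroxisomal half-transporter, had a ratio of 1.12 (1.03 to 1.21). In the ABCA list, Abca2 and Abca9 had ratios of 0.702 and 0.758.

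**Figure D5:**
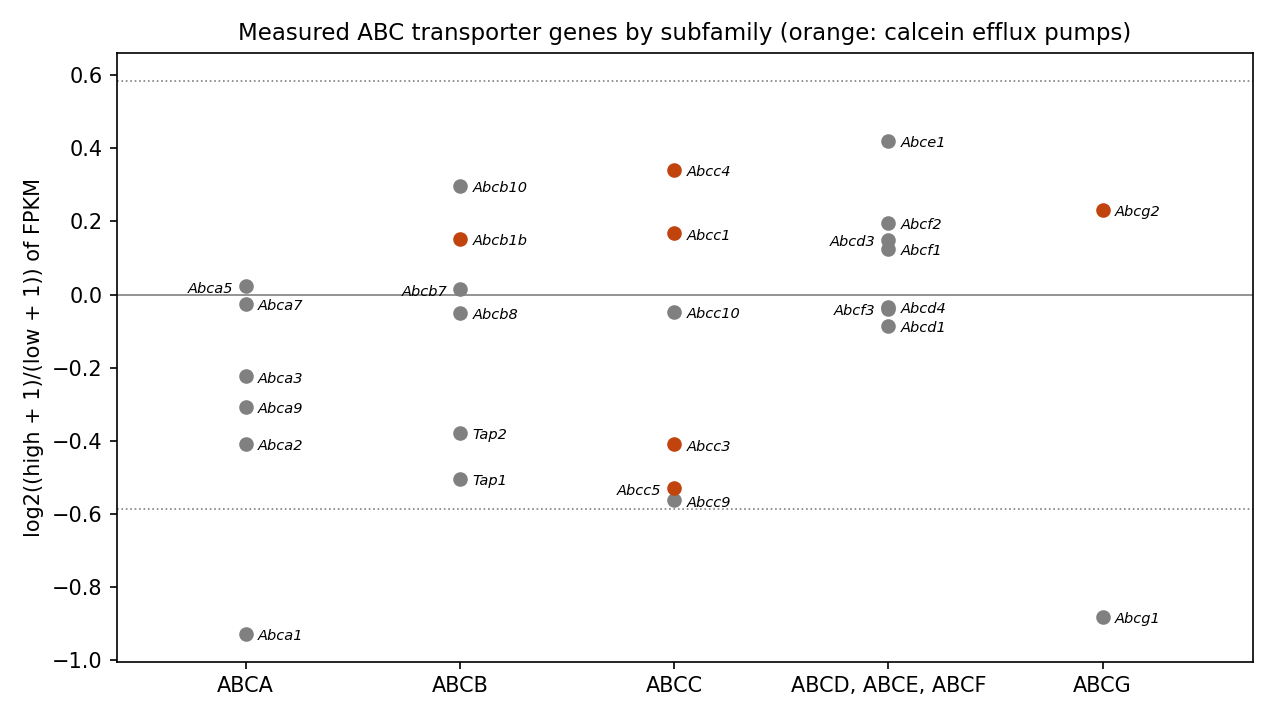
Log2((high + 1)/(low + 1)) of FPKM for each measured ABC gene by subfamily, with the calcein efflux pumps in orange, the other genes in grey and dotted lines at 1.5-fold. Abca1 and Abcg1 lie below the lower line, and the pumps lie on both sides of 0.

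Genes around the pumps were examined by list. Over all lists, the other ABC genes included, 3 of 79 measured genes were higher and 5 lower by 1.5-fold or more, beside the 1.54% and 4.38% of all measured genes. The membrane scaffolds had 1 of 6 higher and 0 lower, with a median of 0.18. The 1 was Cav1, the coat protein of caveolae, at 73.3 FPKM in the high and 47.3 FPKM in the low mPTP opening library, a ratio of 1.55 (1.47 to 1.63). Ezrin (Ezr) and its partner NHERF1 (Slc9a3r1), which tie membrane proteins to actin, had ratios of 0.719 and 0.700. Radixin (Rdx) and moesin (Msn), of the same list, went the other way, with ratios of 1.22 (1.17 to 1.27) and 1.21 (1.17 to 1.24).

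Glutathione genes bear on MRP1, which carries glutathione and its conjugates. Of 14 measured genes 2 were higher and 0 lower, beside 1.54% and 4.38% of all measured genes, with a median of -0.07. Gsto1, an omega class glutathione transferase, was at 63.2 FPKM in the high and 40.3 FPKM in the low mPTP opening library, a ratio of 1.57 (1.46 to 1.69). Gstp2 was at 1.90 and 0.862 FPKM, from 35 and 14 reads, and is uncertain because it is a close copy of Gstp1. Gsta4, which conjugates products of lipid peroxidation, had a ratio of 0.662 (0.531 to 0.824).

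Regulators known to act on pump genes had 0 of 11 higher and 0 lower, beside 1.54% and 4.38% of all measured genes. Their median was -0.0041. Nfe2l2, which encodes NRF2, the factor of the antioxidant response, had a ratio of 0.872 (0.807 to 0.942), Trp53 had a ratio of 1.17 (1.09 to 1.25), and Ybx1, a Y-box factor, had a ratio of 1.28 (1.25 to 1.32). Other ester hydrolases had 0 of 15 higher and 0 lower, beside the same shares of all measured genes, with a median of -0.14. The largest differences in that list on the log2(FPKM + 1) scale were -0.47 for Abhd12, a lysophospholipase, -0.45 for Nceh1, which cuts cholesterol esters, and -0.35 for Lipa, the lysosomal acid lipase. Organic anion carriers had 0 of 5 higher and 0 lower, again beside those shares. A count of 0 in lists of these sizes is near that background. Slco3a1 had a ratio of 1.43 (1.24 to 1.64) and Slco2b1 one of 0.769 (0.585 to 1.01). Slc46a1, the proton-coupled folate carrier, had a ratio of 0.847 (0.668 to 1.07).

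Cobalt, the quencher, crosses membranes through carriers of divalent metals. Of 7 measured genes of that list 0 were higher and 3 lower, beside 1.54% and 4.38% of all measured genes, with a median of -0.07. Slc40a1, the iron exporter, had a ratio of 0.466 (0.429 to 0.506), Slc39a8, a metal importer, a ratio of 0.478 (0.379 to 0.601), and Slc11a1, the metal carrier of macrophage phagosomes, was at 0.527 FPKM in the high and 1.52 FPKM in the low mPTP opening library, a ratio of 0.346 (0.223 to 0.526).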

How the data were processed

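Total RNA of mouse embryonic fibroblasts sorted by calcein fluorescence was made into TruSeq libraries, per the labels' protocols. FPKM values for both libraries stand in a single table deposited by the authors, 1 column each, matched by name. Per the submitters' processing notes, Bowtie2 2.2.3, TopHat2 2.0.12 and the build mm10 were used; which counter, annotation or strand setting served is not given in the sources used here. No row is at 0 in both libraries.

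FPKM times the exon length in GENCODE M21 was a whole multiple of 1 step per library, within 0.05 reads for 93.4% (high) and 93.1% (low mPTP opening) of genes with up to 20 reads and 85.7% of all genes in each. The steps gave the depths and reads. Intervals of a ratio are exact Clopper-Pearson, those of a level exact Poisson, at 95%; that of a summed ratio uses the delta method. PCR copies are not independent, so all cover counting error only.

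Rows that share a symbol were summed. No p-value is given, since each group has 1 library. The genes and the 12 related and 9 marker lists were chosen with earlier results of these data known. Named genes were all 10 members, and of each related list the 3 measured genes with the largest differences and any past 1.5-fold. Outside this rule, Abcb4, Ces1a, Ces2e and Ces1g (gene cluster or family of a member) and the markers Acta2, Notch3, Rgs5 and Kcnj8 were chosen after their values were seen. Rdx and Msn, of the scaffold list, were also named after their values were seen. Likeness of pattern was not computed, since 2 libraries give 1 difference per gene. Sequences came from RefSeq and GENCODE; 7 of 10 genes had a promoter window. Scripts were tested on simulated data. SciPy 1.17.1 gave the intervals and matplotlib 3.10.9 the figures, with pandas 2.3.3 and NumPy 2.4.6 under Python 3.11.15.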

Additional observations from a re-analysis of the deposited data

How the results depend on the processing

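Alternatives changed the pseudocount (0.1 or 5 FPKM), the scaling, the filter, the size rule or the rows of 1 symbol. The signs of the 7 measured differences were kept under the 8 pseudocounts, scalings and row choices run (that of Abcb1a, below 1 FPKM, turned positive in 1), and their median stayed between 0.11 and 0.31. No measured member passed 1.5-fold with any scaling, filter or pseudocount of 0.1 FPKM or more. Ces2g, which is below 1 FPKM and so not counted, had a log2 difference of -1.06 with a pseudocount of 0.1 FPKM and between -0.70 and -0.62 under the 3 scalings to a sum, past that size. At 1.2-fold, 1 was higher and 2 lower, and without a pseudocount, an alternative chosen after seeing the data, 2 were lower. The 3 higher related genes were 1 with a pseudocount of 5 FPKM and 0 at 2-fold. The 5 lower ones were 9 with a pseudocount of 0.1 FPKM or none, 2 with 5 FPKM and 0 at 2-fold.

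The summed pump ratio, 0.952, turned to 1.04 after scaling to a sum of 1000000 and 1.03 after the same without mitochondrially encoded genes. These scalings shift every ratio by 0.12 on the log2 scale. The pump ratio was 0.970 with the median ratio, 0.972 with the trimmed mean of log ratios and 0.963 with the sum without Gm23935. It was 1.12 without Abcc5, 0.897 without Abcc1 and 0.883 without Abcg2, the last 2 chosen after seeing the data. The esterase ratio, 1.16, was 1.27 after scaling to a sum of 1000000 and 1.26 after the same without mitochondrially encoded genes. Without Esd it was 0.360. No paired analysis was possible because each group has 1 library. Depth limits Abcb1a and Ces2g, with 7 to 23 reads per library.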
